A study of Mus musculus with 6 samples.

Results

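The genes described here serve acetylcholine signalling in the retina and the starburst amacrine cell, the interneuron that makes and releases acetylcholine there. They were chosen by name for their roles in the synthesis, transport, breakdown and reception of acetylcholine and in the spacing of starburst cells. All 10 named genes were present among the 11339 genes of the deposited table. Whole retinas of C57Bl6/J mice were taken at postnatal day 14 (P14), with a pair of retinas in each sample. The *Mll1KO* group (3 samples) carried floxed *Mll1* alleles (MLL1 fl/fl) together with Chx10-Cre, and the WT group (3 samples) was wild type. Chx10-Cre is active in retinal progenitor cells, so recombination reaches many retinal cell types and the cells that escape it stay in the sample. Since only the *Mll1KO* mice carried Cre, effects of Cre itself and of the loss of *Mll1* cannot be told apart.

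Starburst amacrine cells are known for their part in direction selectivity, and before the photoreceptors mature they drive cholinergic waves of activity across the retina. Choline enters the terminal through a high-affinity transporter, is acetylated by choline acetyltransferase and is loaded into vesicles by a dedicated vesicular transporter, and acetylcholinesterase ends the signal in the cleft. Released acetylcholine acts on nicotinic receptors, which are pentamers of alpha and beta subunits, and on G protein-coupled muscarinic receptors, and retinal ganglion cells and other amacrine cells carry both kinds.

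Values are RPKM, which are reads set to gene length and library total. The libraries held 23836033, 19777205 and 19323512 reads (WT samples a to c) and 23348923, 19855963 and 17961097 reads (*Mll1KO* samples a to c). The read numbers behind the cholinergic genes ran from 177 for *Chrna3* in 1 *Mll1KO* library to 2528 for *Ache*. Fold changes are differences of mean log2(RPKM + 1), a scale that shrinks the changes of genes with low values. A gene was called when its limma p-value, adjusted by Benjamini-Hochberg over all 11339 genes, was under 0.05. Nothing in the labels says which animals or litters the samples came from beyond their genotype.

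The targeted gene was read first as a check of the labels. *Kmt2a*, the current symbol of *Mll1* (ENSMUSG00000002028), had an RPKM of 36.1, 36.9 and 34.6 in WT samples a to c and of 22.9, 20.4 and 22.3 in *Mll1KO* samples a to c. Every *Mll1KO* library lay below every WT library, in the direction of its label. The log2 fold change was -0.69 (SE 0.05, limma adjusted p = 2.77e-05). The RPKM of a gene covers all of its exons, including those outside the floxed stretch.

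The samples carried the RNA of starburst cells. Besides *Chat*, *Slc18a3*, *Slc5a7* and *Megf10*, 12 of 13 other genes listed for these cells were measured, the most abundant being the calcium-binding protein gene *Calb2* with a mean RPKM of 255 in WT, and *Fezf1* was not analysed here. Most of these 12 genes are also used by other amacrine or ganglion cells, so that they mark starburst cells only in combination. None of the 10 markers of skeletal muscle, which is rich in nicotinic subunit transcripts, was among the genes analysed.

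Across the cholinergic genes, 3 receptor subunit genes fell and the gene of the degrading enzyme rose, while the genes behind the synthesis, loading and uptake of the transmitter did not pass the test with the libraries scaled to their totals. In all, 4 of 10 genes were called, 3 lower (*Chrna3*, *Chrna4* and *Chrna6*) and 1 higher (*Ache*), against 23.3% of all genes tested. Lower calls made up 14.5% of all genes and higher calls 8.81%. The median log2 fold change of the 10 genes was -0.12, beside a median of -0.03 over all genes. In 6 of the 10 genes the RPKM of the groups did not overlap, as in 41.1% of all genes. With TMM, upper-quartile or RLE factors, which correct the library total for its composition, 6 of the 10 genes were called (21.2% to 21.3% of all genes), *Chat* and *Slc5a7* being added as higher. With libraries scaled to an equal sum over 19 rod genes, 8 were called, 7 of them lower, as were 83.7% and 81.6% of all genes. That scaling lowered the log2 fold change of every gene, moving the median over all genes from -0.03 to -0.29.

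**Figure D1:**
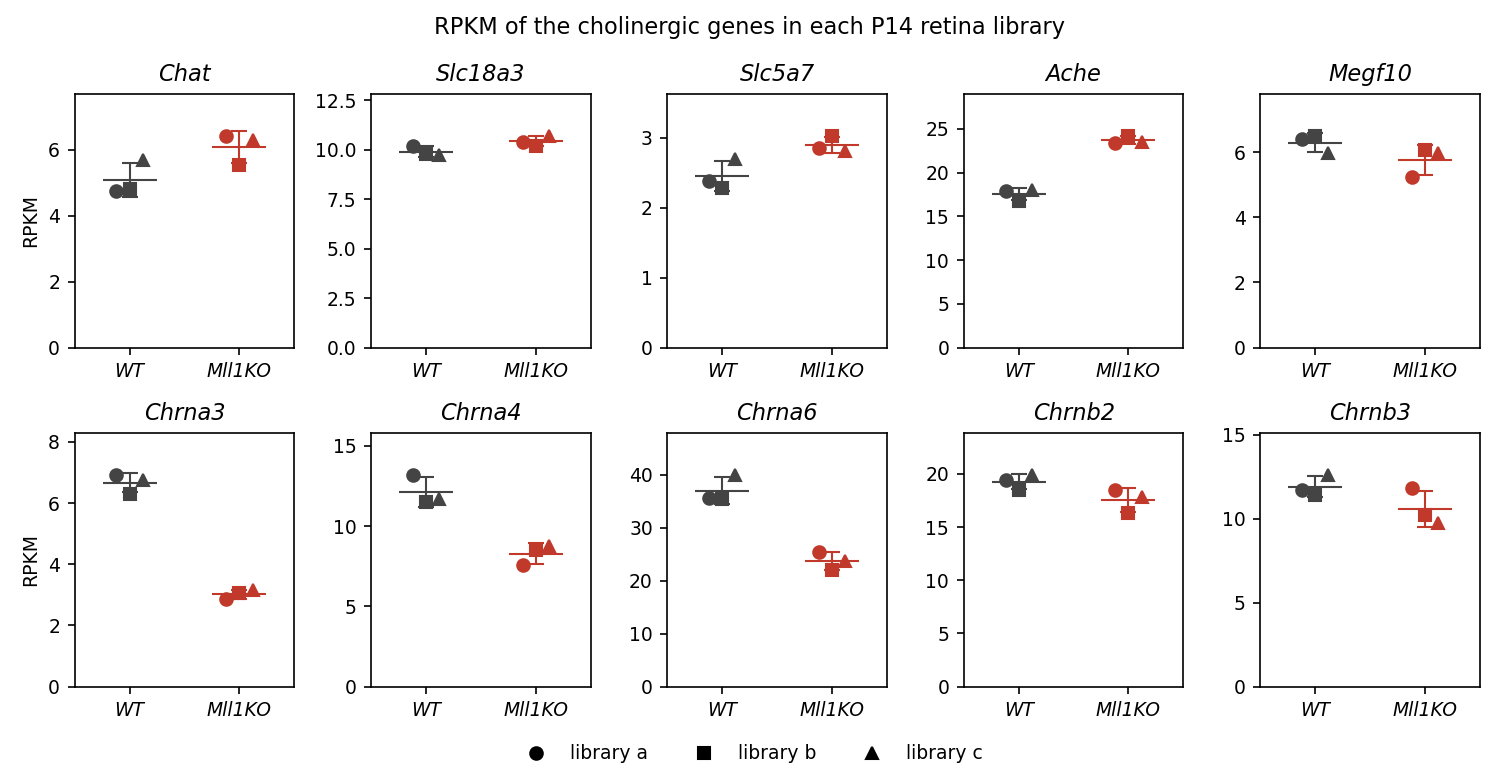
RPKM (vertical axes, each from 0) of the 10 cholinergic genes in WT (grey) and *Mll1KO* (red) libraries, where circles, squares and triangles are libraries a, b and c, and bars show the mean ± SD (n = 3). All 3 *Mll1KO* libraries lay below all WT libraries for *Chrna3*, *Chrna4* and *Chrna6*. They lay above all WT libraries for *Ache* and, by small margins, for *Slc18a3* and *Slc5a7*. The groups overlapped for *Chat*, *Megf10*, *Chrnb2* and *Chrnb3*.

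Choline acetyltransferase, the enzyme that synthesises acetylcholine and the defining marker of the starburst cell, is encoded by *Chat* (ENSMUSG00000021919). Its RPKM was 4.76, 4.80 and 5.69 in WT samples a to c, and 6.42, 5.54 and 6.30 in *Mll1KO* samples a to c. WT sample c was the highest of its group and exceeded *Mll1KO* sample b, so the groups overlapped. The mean of *Mll1KO* was 19.6% above that of WT, with a log2 fold change of 0.22 (95% interval 0.05 to 0.39) that missed the threshold (limma adjusted p = 0.0605). The gene was called higher with TMM, upper-quartile or RLE factors in place of the library total, without WT sample c (0.29, limma adjusted p = 0.024) and without *Mll1KO* sample b (0.28). Its log2 fold change turned to -0.03 with libraries scaled to rod genes, and the limma adjusted p of its alternatives ran from 0.024 to 0.758.

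The vesicular acetylcholine transporter, which fills the synaptic vesicles, is the product of *Slc18a3* (ENSMUSG00000100241). It had an RPKM of 10.2, 9.79 and 9.72 in WT samples a to c and of 10.4, 10.2 and 10.7 in *Mll1KO* samples a to c. The values of the groups touched without crossing, *Mll1KO* sample b standing just above WT sample a. The log2 fold change of 0.07 (95% interval -0.03 to 0.17, limma adjusted p = 0.301) was not called, and it became -0.20, called lower, with the scaling to rod genes (limma adjusted p = 0.00718, alternatives up to 0.553).

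*Slc18a3* and *Chat* form a nested locus. *Chat* lies at chr14:32408203-32465989 on the minus strand in GRCm38, and *Slc18a3* lies within it at chr14:32462438-32464850 on the same strand, with 0 exon bases in common in the annotation used. Within each library, the log2 ratio of *Slc18a3* to *Chat* was 1.09, 1.03 and 0.77 in WT samples a to c and 0.69, 0.88 and 0.77 in *Mll1KO* samples a to c. The groups overlapped, *Mll1KO* sample b lying above WT sample c. The mean ratio moved by -0.18 on the log2 scale (exact permutation test, two-sided p = 0.2 and 0.2 after adjustment over 2 ratios, where 3 against 3 libraries cannot go below 0.1 and so cannot pass 0.05).

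The high-affinity choline transporter, which limits the supply of choline for synthesis, is encoded by *Slc5a7* (ENSMUSG00000023945). It had the lowest mean of the 10 genes in both groups, with an RPKM of 2.39, 2.28 and 2.70 in WT samples a to c and 2.86, 3.03 and 2.81 in *Mll1KO* samples a to c. All *Mll1KO* libraries stood above all WT libraries, by a small margin over WT sample c. The log2 fold change was 0.18 (95% interval 0.04 to 0.31), short of the threshold (limma adjusted p = 0.0624). It passed with TMM, upper-quartile and RLE factors and without WT sample c (0.23, limma adjusted p = 0.0344), and changed sign with the scaling to rod genes (-0.04), its alternatives reaching 0.592.

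Acetylcholinesterase, which hydrolyses acetylcholine and ends its action, is encoded by *Ache* (ENSMUSG00000023328, chr5:137287519-137294466 on the plus strand in GRCm38). Its RPKM was 17.9, 16.8 and 18.0 in WT samples a to c, and rose to 23.4, 24.2 and 23.5 in *Mll1KO* samples a to c. The lowest *Mll1KO* library was far above the highest WT library relative to the spread within the groups. The *Mll1KO* mean of 23.7 ± 0.427 (SD, n = 3) exceeded the WT mean of 17.6 ± 0.653 (SD, n = 3) by 34.7%, with a log2 fold change of 0.41 (SE 0.04, limma adjusted p = 0.000194). *Ache* remained called higher in all 15 alternatives, including the scaling to rod genes, in which its log2 fold change was 0.13. An antisense gene, Gm42456, covers 2.1% of its exon bases, and reads of the pair cannot be told apart without strand.

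Other genes of breakdown and choline supply stayed near the centre of the table. Of 16 listed genes, 11 were measured, with 0 called higher and 1 called lower, and their median log2 fold change was -0.03, the same as over all genes. The membrane anchor of acetylcholinesterase, *Prima1*, had the highest log2 fold change of the list at 0.22 (-0.03 with the scaling to rod genes), on as few as 106 reads in a library and not called (limma adjusted p = 0.114). Without WT sample a it was 0.33 and called (limma adjusted p = 0.00904, alternatives up to 0.769). *Slc44a5*, of the choline transporter-like family, had the lowest at -0.25 and was called (limma adjusted p = 0.0177), at a mean RPKM of 1.12 in WT and 0.785 in *Mll1KO*, but not without WT sample a (-0.24), WT sample b (-0.21) or *Mll1KO* sample b (-0.24). Its gene length, and so its read number, could not be recovered as a single value. *Acly*, whose product supplies cytosolic acetyl-CoA, was the most abundant with a mean RPKM of 67.3 in WT and 68.5 in *Mll1KO*, and its log2 fold change of 0.03 became -0.26 with the scaling to rod genes.

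The receptor-like protein MEGF10 lets neighbouring starburst cells recognise and space themselves from each other. The RPKM of *Megf10* (ENSMUSG00000024593) was 6.41, 6.50 and 5.97 in WT samples a to c and 5.24, 6.06 and 5.98 in *Mll1KO* samples a to c. WT sample c lay among the *Mll1KO* libraries. The log2 fold change of -0.11 (95% interval -0.25 to 0.03, limma adjusted p = 0.234) did not pass, and it was called only with the scaling to rod genes (-0.36, limma adjusted p = 0.000528, alternatives up to 0.544). The related gene *Megf11* had a mean RPKM of 5.35 in WT and 6.08 in *Mll1KO*, with *Mll1KO* libraries above WT libraries throughout, a log2 fold change of 0.16 (-0.09 with the scaling to rod genes) and a limma adjusted p of 0.0517. It was called in 5 of 15 alternatives, TMM factors among them (0.19).

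Among the nicotinic subunits, the alpha subunits of the list fell and the beta subunits did not pass the test with all libraries scaled to their totals. *Chrna3* (ENSMUSG00000032303), the alpha3 subunit, had an RPKM of 6.92, 6.31 and 6.76 in WT samples a to c and 2.87, 3.05 and 3.16 in *Mll1KO* samples a to c. No library of either group came near the other group. The mean fell from 6.66 ± 0.313 (SD, n = 3) to 3.02 ± 0.146 (SD, n = 3), which is 45.4% of WT, with a log2 fold change of -0.93 (SE 0.06, limma adjusted p = 1.07e-05). In bulk retina, fewer cells of a type and less RNA per cell cannot be told apart.

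*Chrna6* (ENSMUSG00000031491), the alpha6 subunit, typical of ganglion cells and their axon terminals, was the most abundant of the 10 genes per length in WT. Its RPKM was 35.7, 35.4 and 40.0 in WT samples a to c and 25.4, 22.1 and 23.7 in *Mll1KO* samples a to c. WT sample c was high within its group, and the groups stood well apart with or without it. The mean fell from 37.0 ± 2.59 (SD, n = 3) to 23.7 ± 1.65 (SD, n = 3), or 64.1% of WT, with a log2 fold change of -0.62 (SE 0.06, limma adjusted p = 0.000146).

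The alpha4 subunit, which with beta2 forms the main high-affinity nicotine receptor of the brain, is encoded by *Chrna4* (ENSMUSG00000027577). The RPKM was 13.2, 11.5 and 11.7 in WT samples a to c, and 7.56, 8.53 and 8.78 in *Mll1KO* samples a to c. WT sample a was the highest and *Mll1KO* sample a the lowest, and the groups did not overlap. The mean fell to 68.4% of WT, with a log2 fold change of -0.50 (SE 0.07, limma adjusted p = 0.000917). *Chrna3*, *Chrna4* and *Chrna6* were called lower in all 15 alternatives, with log2 fold changes from -1.17 to -0.54, from -0.76 to -0.36 and from -0.90 to -0.55.

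The beta2 subunit gene *Chrnb2* (ENSMUSG00000027950) had an RPKM of 19.4, 18.5 and 19.9 in WT samples a to c and 18.5, 16.3 and 17.8 in *Mll1KO* samples a to c. *Mll1KO* sample a matched WT sample b, so the groups overlapped. The log2 fold change was -0.13 (95% interval -0.25 to -0.01, limma adjusted p = 0.117), and it was called only with the scaling to rod genes (-0.41, limma adjusted p = 0.000134, alternatives up to 0.333). The gene shares 16.3% of its annotated exon bases with *Adar*, which is read from the opposite strand. No source used here says that reads were counted by strand, so the part of *Adar* in this value was not tested.

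*Chrnb3* (ENSMUSG00000031492), whose product is an accessory subunit that assembles with alpha6, had an RPKM of 11.7, 11.4 and 12.6 in WT samples a to c and 11.8, 10.2 and 9.71 in *Mll1KO* samples a to c. *Mll1KO* sample a lay within the WT group and the other *Mll1KO* libraries below it. The log2 fold change of -0.16 was not called (limma adjusted p = 0.125). Without *Mll1KO* sample a it was -0.23 and called (limma adjusted p = 0.0231), and with the scaling to rod genes it was -0.43, its alternatives running from 0.000251 to 0.356.

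*Chrna6* and *Chrnb3* are neighbours, at chr8:27403212-27413944 on the minus strand and chr8:27368711-27399730 on the plus strand in GRCm38, with their 3′ ends facing each other over 3481 bases. The log2 ratio of *Chrnb3* to *Chrna6* was -1.61, -1.64 and -1.67 in WT samples a to c and -1.11, -1.11 and -1.29 in *Mll1KO* samples a to c. WT libraries were within a narrow band, and all *Mll1KO* libraries had more *Chrnb3* for their *Chrna6*. The difference of 0.47 on the log2 scale is independent of library scaling, and its exact permutation test gave the smallest p that 3 against 3 libraries allow (two-sided p = 0.1, and 0.2 after adjustment over 2 ratios), which does not pass the threshold. Expressed as a ratio of RPKM, *Chrnb3* was at 0.321 of *Chrna6* in WT and at 0.444 in *Mll1KO*.

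**Figure D2:**
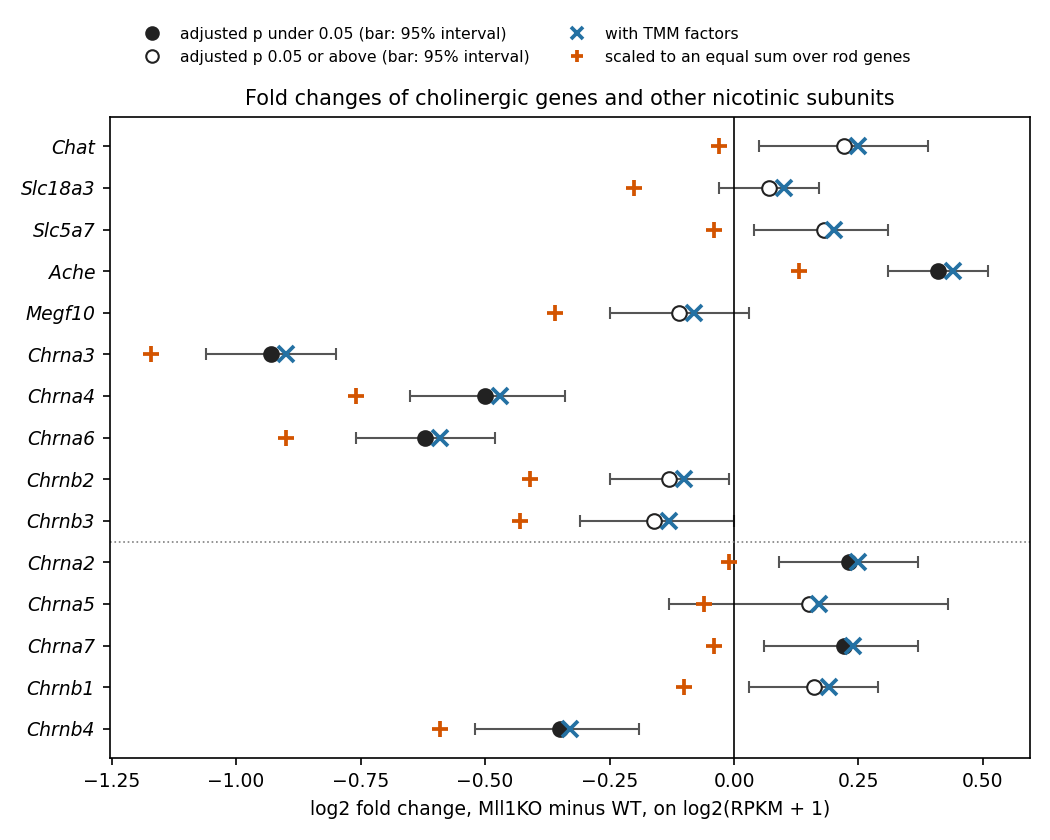
Log2 fold change (horizontal axis, *Mll1KO* minus WT on log2(RPKM + 1)) of the 10 cholinergic genes and, under the dotted line, 5 other nicotinic subunit genes, where circles are filled for a limma adjusted p under 0.05, bars are 95% intervals, and crosses and plus signs are values with TMM factors and with libraries scaled to an equal sum over rod genes. The scaling to rod genes moved all 15 genes to lower values, which took *Chat*, *Slc18a3*, *Slc5a7*, *Chrna2*, *Chrna5*, *Chrna7* and *Chrnb1* below 0 and left *Ache* at 0.13.

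The other nicotinic subunits moved both ways. Of 11 listed genes 5 were measured, with 2 called higher, 1 called lower and a median log2 fold change of 0.16, or -0.06 with the scaling to rod genes. *Chrna7*, which forms homomeric receptors, had an RPKM of 6.40, 6.60 and 5.89 in WT samples a to c and 8.05, 6.74 and 7.67 in *Mll1KO* samples a to c. The groups did not overlap, though *Mll1KO* sample b was close to WT sample b. The gene rose by 0.22 (limma adjusted p = 0.0480), and its log2 fold change was -0.04 with the scaling to rod genes. That call held in 7 of 15 alternatives and was lost without any of the WT samples (0.18 to 0.25) and without *Mll1KO* sample a (0.17) or c (0.20), and with limma-voom (0.25). *Chrna2* was higher at 4.38, 4.30 and 4.75 in *Mll1KO* samples a to c than at 4.01, 3.48 and 3.57 in the WT samples, with no overlap. Its log2 fold change of 0.23 was called (limma adjusted p = 0.0276) and turned to -0.01 with the scaling to rod genes. It was not called without WT sample b (0.20) or c (0.21) or *Mll1KO* sample c (0.19). *Chrnb1*, the beta1 subunit of muscle receptors, had means of 6.13 in WT and 6.96 in *Mll1KO* and was not called (0.16, limma adjusted p = 0.0813), with -0.10 after the scaling to rod genes. It was called higher only with upper-quartile factors (0.19, limma adjusted p = 0.0463).

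*Chrna3* shares its locus with *Chrna5* and *Chrnb4*, and the 3 genes differed in their values. In GRCm38, *Chrna3* lies at chr9:55010111-55026562 on the minus strand, 2331 bases from *Chrna5* (chr9:54980880-55007779, plus strand) and 1591 bases from *Chrnb4* (chr9:55028154-55048779, minus strand). *Chrnb4* fell with *Chrna3*, from 5.31, 4.87 and 4.13 in WT samples a to c to 3.54, 3.57 and 3.39 in *Mll1KO* samples a to c, with no overlap. Its log2 fold change was -0.35 (SE 0.08, limma adjusted p = 0.00855), and it was called in all 15 alternatives. The third gene, *Chrna5*, stood at 2.47, 2.33 and 2.48 in WT samples a to c and at 2.47, 2.24 and 3.84 in *Mll1KO* samples a to c. *Mll1KO* sample c alone was high, and without it the log2 fold change went from 0.15 (limma adjusted p = 0.430) to -0.03, as it went to -0.06 with the scaling to rod genes. Whether the changes of the 3 genes differ from each other was not tested. The targeted gene *Kmt2a* lies on the same chromosome, at chr9:44803355-44881296 (minus strand). The part of this linkage to the floxed allele in the 3 values was not tested.

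The subunits are also described as a share of the summed RPKM of the 10 measured subunits, a quantity that library scaling leaves as it is. Whether the shares differ between the groups was not tested. The sum was 111, 106 and 113 in WT samples a to c and 91.5, 84.5 and 89.3 in *Mll1KO* samples a to c. The share of *Chrna6* was 33.6% ± 1.61 in WT and 26.8% ± 0.854 in *Mll1KO* (mean ± SD, n = 3), and *Chrna3* went from 6.04% ± 0.155 to 3.42% ± 0.255 and *Chrna4* from 11.0% ± 0.805 to 9.40% ± 0.987, without overlap between the groups. For *Chrna4* the gap was narrow, with 10.3% in WT sample c against 10.1% in *Mll1KO* sample b. In turn the share of *Chrnb2* went from 17.5% ± 0.105 to 19.8% ± 0.488, that of *Chrna7* from 5.72% ± 0.514 to 8.46% ± 0.423 and that of *Chrnb1* from 5.56% ± 0.0921 to 7.89% ± 0.761, again without overlap. The shares of *Chrna2* (3.34% ± 0.238 to 5.07% ± 0.263) and *Chrna5* (2.20% ± 0.0189 to 3.22% ± 0.937) also rose without overlap, the latter most in *Mll1KO* sample c. For *Chrnb3* and *Chrnb4* the shares of the groups overlapped. Shares add up to a fixed total, so the fall of *Chrna6* alone raises the share of each other subunit.

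**Figure D3:**
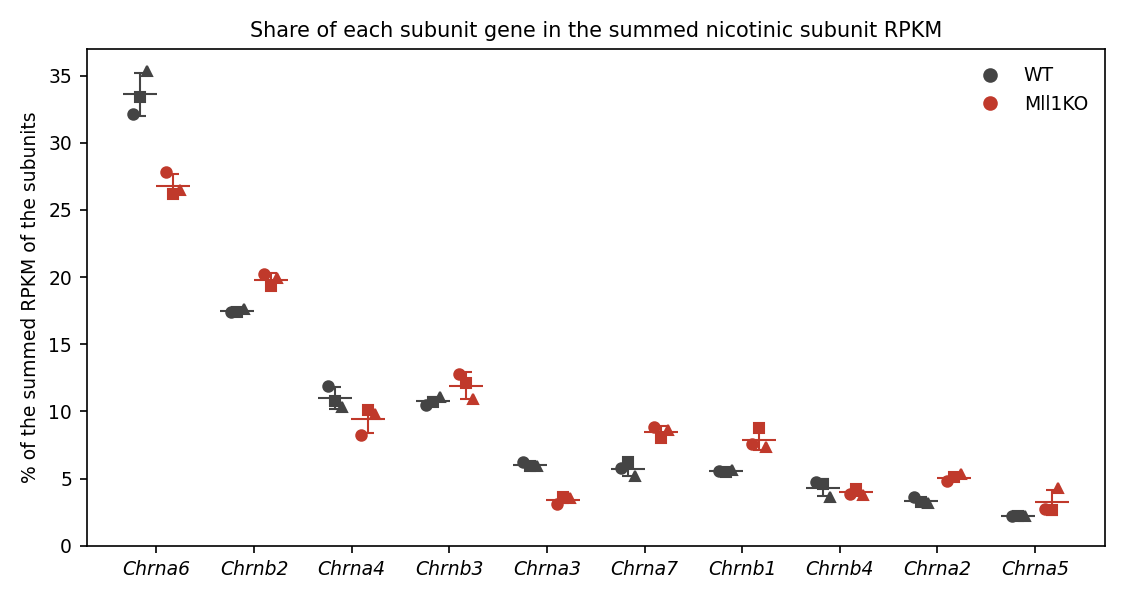
Share (vertical axis, %) of each of 10 nicotinic subunit genes in their summed RPKM, in WT (grey) and *Mll1KO* (red) libraries, where circles, squares and triangles are libraries a, b and c, and bars show the mean ± SD (n = 3). *Chrna6* held 33.6% in WT and 26.8% in *Mll1KO*, while *Chrnb2* held 17.5% and 19.8%.

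Genes that assemble or modulate nicotinic receptors gave 0 higher and 3 lower calls of 6 measured and 8 listed, with a median log2 fold change of -0.07. The lower ones encode proteins of the Ly6 family that bind the receptor or are related to those that do: *Lynx1*, the most abundant with a mean RPKM of 52.4 in WT and 45.6 in *Mll1KO* (-0.20, limma adjusted p = 0.0170), *Ly6h* (-0.18, 0.0343) and *Ly6e* (-0.22, 0.0258). These calls held in 12, 9 and 8 of 15 alternatives. With TMM, upper-quartile or RLE factors *Ly6h* (-0.15) and *Ly6e* (-0.19) were not called. All 3 were lost without WT sample a (-0.19, -0.18 and -0.18) and without *Mll1KO* sample c (-0.16, -0.14 and -0.19), *Ly6h* and *Ly6e* also without WT sample b (-0.16 and -0.23), *Lynx1* without WT sample c (-0.17) and *Ly6e* without *Mll1KO* sample a (-0.19). The chaperones *Ric3* and *Tmem35a*, the latter required for alpha7 receptors, had log2 fold changes of 0.09 and 0.13 and were not called (limma adjusted p = 0.191 and 0.0697), and both were called lower with the scaling to rod genes (-0.18 and -0.15). *Tmem35a* was called higher with TMM (0.16), upper-quartile and RLE factors (0.17). *Lypd6* stood at 0.04 (limma adjusted p = 0.712), at -0.22 with that scaling and at -0.02 without *Mll1KO* sample b.

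None of the 3 measured muscarinic receptors of 5 listed was called by limma. At an unadjusted p under 0.05, and with limma-voom in place of limma, the counts were 1 and 0. The former was *Chrm3*, with an RPKM of 2.43, 2.51 and 2.76 in WT samples a to c and 2.92, 2.96 and 3.47 in *Mll1KO* samples a to c. All *Mll1KO* libraries were above all WT libraries. Its log2 fold change was 0.21 (limma adjusted p = 0.0521), and -0.01 with the scaling to rod genes. It was called without *Mll1KO* sample a (0.24) and in 5 of 15 alternatives in all. *Chrm1* and *Chrm2* were at 0.12 and -0.07 (limma adjusted p = 0.210 and 0.442). With the scaling to rod genes they were at -0.09 and -0.27, the latter called.

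The other genes of the starburst cell moved both ways. Of 12 measured, 2 were called higher and 5 lower, with a median log2 fold change of -0.03. The LIM homeodomain factor gene *Isl1*, which starburst cells share with ganglion and ON bipolar cells, fell most, from 32.2, 33.7 and 33.1 RPKM in WT samples a to c to 20.5, 23.8 and 23.1 in *Mll1KO* samples a to c. The groups stood apart, with a log2 fold change of -0.54 (limma adjusted p = 0.000183). The lower calls also took in *Sema6a* and its receptor gene *Plxna2*, which pattern starburst arbors (-0.52 and -0.29, limma adjusted p = 0.000804 and 0.00431), and *Calb2* (-0.50, 0.000831). *Sox2*, a transcription factor of starburst cells and Muller glia, was at 0.11 and not called (limma adjusted p = 0.160), and was called lower with the scaling to rod genes (-0.16). *Rnd3* had means of 4.95 in WT and 4.90 in *Mll1KO*, and its log2 fold change of -0.01 took either sign over the alternatives, such as 0.01 with TMM factors and 0.03 without *Mll1KO* sample a. It was called, as lower, only with the scaling to rod genes (-0.26, limma adjusted p = 0.00375).

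Starburst cells release GABA as well as acetylcholine, and the genes of that pathway were split. *Gad1*, encoding the larger glutamate decarboxylase, rose from 29.9, 29.9 and 32.8 RPKM in WT samples a to c to 36.4, 36.4 and 41.6 in *Mll1KO* samples a to c (log2 fold change 0.30, limma adjusted p = 0.00684, and 0.01 with the scaling to rod genes). *Gad2*, encoding the smaller form, fell from 10.5, 9.96 and 11.1 to 7.02, 6.43 and 8.13 in the same order (-0.49, limma adjusted p = 0.00165). Neither gene showed overlap between the groups. The vesicular transporter gene *Slc32a1* was at 0.16 (limma adjusted p = 0.0665), or -0.13 with the scaling to rod genes, and was called in 6 of 15 alternatives, among them TMM, upper-quartile and RLE factors (0.19), limma-voom (0.16) and the data without *Mll1KO* sample b (0.20). Of the channel genes behind fast repolarisation in starburst processes, *Kcnc2* rose by 0.47 (limma adjusted p = 0.000809), with means of 6.20 in WT and 8.97 in *Mll1KO*, and *Kcnc1* stood at -0.04 (limma adjusted p = 0.551). *Kcnc1* was called lower with the scaling to rod genes (-0.32, limma adjusted p = 0.00023).

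Markers of other retinal cells moved between the same libraries. Of 10 measured retinal ganglion cell markers (12 listed), 8 were called lower and 0 higher, with a median log2 fold change of -0.52, and their summed RPKM was 622, 581 and 613 in WT samples a to c and 486, 440.3 and 406 in *Mll1KO* samples a to c. *Sncg* was the most abundant of them (-0.55, limma adjusted p = 0.000643), *Pou4f2* had the lowest log2 fold change (-0.89, limma adjusted p = 0.000287) and *Slc17a6* the highest (-0.15, limma adjusted p = 0.159). *Slc17a6* was called lower with the scaling to rod genes (-0.43, limma adjusted p = 0.000276). Ganglion cells also express *Chrna3*, *Chrna4*, *Chrna6* and *Chrnb3*, and the part of the ganglion cell list in the values of these subunits was not tested.

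Amacrine markers outside the starburst list showed no common direction. Of 8 measured pan-amacrine markers (10 listed), 2 were called higher and 4 lower, with a median log2 fold change of -0.09, and their summed RPKM was 440.0, 416 and 434 in WT samples a to c and 418, 439.7 and 464 in *Mll1KO* samples a to c. *C1ql2* had the highest log2 fold change (0.35, or 0.07 and not called with the scaling to rod genes) and *Pax6* the lowest (-0.34), with a limma adjusted p of 0.00612 and 0.00153. Horizontal cell markers gave 7 lower calls of 8 measured (10 listed), with a median of -0.45 and summed RPKM of 143, 147 and 143 in WT samples a to c and 98.9, 102 and 106 in *Mll1KO* samples a to c. Among these *Slc4a3* was lowest at -0.70, *Calb1* highest at -0.13 and *Sept4* the most abundant at -0.40 (limma adjusted p = 1.52e-05, 0.201 and 0.000122). *Calb1* was called lower with the scaling to rod genes (-0.40, limma adjusted p = 0.000665).

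Muller glia and rod markers had more higher than lower calls. Of 10 Muller glia markers 5 were called higher and 1 lower, with a median of 0.21 (-0.08 with the scaling to rod genes), led by *Clu* at 0.68 and with *Vim* at -0.47 and the most abundant, *Glul*, at 0.47 (limma adjusted p = 0.000111, 8.29e-05 and 0.000317). Their summed RPKM was 1663, 1633 and 1793 in WT samples a to c and 2065, 2136 and 2109 in *Mll1KO* samples a to c. Rod markers gave 12 higher and 1 lower call of 19, with a median of 0.24 (-0.05 with the scaling to rod genes) and a summed RPKM of 20492, 19466 and 19936 in WT samples a to c and 24332, 24889.9 and 24138 in *Mll1KO* samples a to c. *Pde6a* was highest at 0.48 and *Nr2e3* lowest at -0.36 (limma adjusted p = 0.000101 and 0.00946). The part of these lists in the value of *Ache* was not tested.

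Markers of tissue from outside the retina varied between libraries of both groups or were low. Retinal pigment epithelium markers (6 measured of 11 listed, 0 called) summed to 231, 124 and 339 RPKM in WT samples a to c and to 114, 234 and 118 in *Mll1KO* samples a to c. WT samples a and c and *Mll1KO* sample b were high. Within each group *Ache* and *Slc5a7* were ordered alike, with WT samples a and c above b and *Mll1KO* sample b above a and c, and the part of this tissue in their values was not tested. *Pmel* ranged widest, from 9.37 to 99.4 RPKM (log2 fold change -1.48, limma adjusted p = 0.113), while *Ttr*, the most abundant, was at -0.28 and *Rgr* at 0.30 (limma adjusted p = 0.358 and 0.457). Without *Mll1KO* sample b, *Rgr* turned to -0.08, and *Ttr* (-0.54) and *Pmel* (-2.03) were called lower, *Pmel* also without WT sample b (-2.23). With the scaling to rod genes *Ttr* (-0.57) and *Pmel* (-1.76) were called lower as well. Both were closer to no change and not called without WT sample c, at -0.11 for *Ttr* and -0.91 for *Pmel*. *Ttr* was at -0.16 without *Mll1KO* sample a and at -0.15 without *Mll1KO* sample c. The 3 measured oligodendrocyte markers of 10 listed summed to at most 10.9 RPKM in a library, with 0 called and *Cnp*, the most abundant, at -0.16 (limma adjusted p = 0.0735). *Cnp* was called lower with the scaling to rod genes (-0.41, limma adjusted p = 0.000228).

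Compared per length, the order of the 10 genes by RPKM differed in part between the groups. In WT, *Chrna6* (37.0) was followed by *Chrnb2* (19.3), *Ache* (17.6), *Chrna4* (12.1), *Chrnb3* (11.9), *Slc18a3* (9.89), *Chrna3* (6.66), *Megf10* (6.30), *Chat* (5.09) and *Slc5a7* (2.46). The libraries of neighbours in this order did not overlap, except those of *Chrna4* and *Chrnb3* and those of *Chrna3* and *Megf10*. In *Mll1KO*, *Ache* (23.7) reached the level of *Chrna6* (23.7), *Slc18a3* (10.4) stood level with *Chrnb3* (10.6) and above *Chrna4* (8.29), and *Chrna3* (3.02) came down to the level of *Slc5a7* (2.90). The libraries of these level pairs overlapped, as did those of *Chat* (6.09) and *Megf10* (5.76). In both groups the vesicular transporter was above the enzyme beside which it is encoded, by a factor of 1.95 in WT and 1.72 in *Mll1KO*. The order rests on the lengths behind RPKM, which for some of these genes differ from the exon length in the annotation used here.

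The genes with the profile most like that of *Chat* over the 6 libraries, by Pearson correlation of log2(RPKM + 1), were *Pgbd5* (r = 0.994), *Ccdc155* (r = 0.993) and *D230025D16Rik* (r = 0.987). They were picked as the closest of all genes outside the cholinergic list, and 194 such genes had r above 0.9, so the values are a description only. Each repeated the pattern of *Chat*, in which WT sample c stood with the *Mll1KO* libraries, and none was called (log2 fold changes 0.09, 0.21 and 0.16, limma adjusted p = 0.202, 0.0632 and 0.110). With the scaling to rod genes *Pgbd5* and *D230025D16Rik* turned to -0.19 (called lower) and -0.09 and *Ccdc155* to just under 0, and without WT sample c *Ccdc155* (0.29) and *D230025D16Rik* (0.23) were called. *Ccdc155* was also called with TMM, upper-quartile and RLE factors (0.24). Within the list, *Slc5a7* (r = 0.79) and *Ache* (r = 0.77) ran with *Chat*, and *Megf10* (r = -0.86), *Chrna4* (r = -0.82) and *Chrna3* (r = -0.77) ran against it. *Slc18a3* was at r = 0.6, *Chrna6* at r = -0.6, *Chrnb3* at r = -0.27 and *Chrnb2* at r = -0.2. These values run over both genotypes together, so they include the difference between the groups.

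Promoters are shown for 2 subunit genes that fell together and for the enzyme gene that rose, as sequence to set beside these changes. RefSeq windows in GRCm38.p6, from 250 bases before to 50 bases after the start of transcription, were found for 7 of the 10 genes (the other 3 being *Megf10*, *Chrna6* and *Chrnb3*). Capitals mark the GC box GGGCGG and the E-box CANNTG on either strand, which did not overlap each other. The windows are chr9:55026513-55026812 (minus strand) for *Chrna3*, chr2:181039128-181039427 (minus strand) for *Chrna4* and chr5:137288004-137288303 (plus strand) for *Ache*, each written 5′ to 3′ along the gene.
Chrna3: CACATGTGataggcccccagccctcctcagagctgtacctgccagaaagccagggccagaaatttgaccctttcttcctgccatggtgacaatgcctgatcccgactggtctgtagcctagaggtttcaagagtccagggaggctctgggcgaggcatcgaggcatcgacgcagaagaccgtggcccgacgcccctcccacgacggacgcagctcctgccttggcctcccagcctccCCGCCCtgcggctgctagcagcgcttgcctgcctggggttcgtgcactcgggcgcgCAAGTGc
Chrna4: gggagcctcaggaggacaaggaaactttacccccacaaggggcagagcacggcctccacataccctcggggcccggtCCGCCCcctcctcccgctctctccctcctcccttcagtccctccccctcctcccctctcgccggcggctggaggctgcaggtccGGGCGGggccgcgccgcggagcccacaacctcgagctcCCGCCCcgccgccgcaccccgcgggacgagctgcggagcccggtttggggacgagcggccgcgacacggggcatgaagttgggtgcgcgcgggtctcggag
Ache: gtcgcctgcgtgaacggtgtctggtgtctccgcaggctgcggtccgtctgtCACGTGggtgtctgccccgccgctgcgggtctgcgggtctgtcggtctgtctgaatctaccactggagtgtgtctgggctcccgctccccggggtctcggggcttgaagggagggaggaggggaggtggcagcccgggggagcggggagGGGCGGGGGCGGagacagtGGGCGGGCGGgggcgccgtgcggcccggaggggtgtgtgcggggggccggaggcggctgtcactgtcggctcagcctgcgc

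The *Chrna3* window held 1 GC box, 3 E-boxes (a pair of them overlapping in a palindrome) and 18 CpG dinucleotides. The *Chrna4* window held 3 GC boxes, 0 E-boxes and 33 CpG dinucleotides, and that of *Ache*, a gene that moved the opposite way, 4 GC boxes, 1 E-box and 30 CpG dinucleotides. Of 32851 windows of this kind, 35.7% held a GC box and 72.3% an E-box, and the median window had 7 CpG dinucleotides. For comparison, the windows of *Chat* and *Slc5a7*, which were not called, had 10 and 1 CpG dinucleotides, and that of *Slc18a3* had 27. The homeodomain core TAATTA was in none of the 7 windows (5.29% of all windows held it), and the TATA box TATAAA was in that of *Slc5a7* only (13.6% of all windows). A match of letters is no evidence of binding, and so few windows cannot tell the genes that rose from those that fell.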

How the data were processed

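RNA of whole retinas at P14 was sequenced by the authors as single-end reads. Per the submitters' processing notes the reads were aligned to mm10 with STAR 2.0.4b and counted per gene with featureCounts 1.45 of Subread, and only genes whose CPM exceeded 5 in 5 or more samples were kept. The table deposited by the authors gives RPKM, in which those counts are divided by gene length and library total, with 1 column per library. The columns of the authors' own edgeR comparison hold fold changes, mean levels, p-values and false discovery rates and were not used.

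The 11404 lines were reduced to 11339 genes, since 59 gene IDs were repeated, and 18 symbols turned into dates were restored from the IDs. Library totals and gene lengths were recovered as the values that turn every RPKM into whole reads (tolerance 0.05), which held for 100.0% of genes, 699 of them with more than 1 possible length. Between 98.4% and 98.5% of the reads of a library lay on these genes, and each gene had at least 90 reads in every library. Replicate libraries differed by 3.80 to 10.5 times the variance of read sampling per gene, so none was a copy of another. The limma p-values set the difference between the groups against the spread between samples within a group, moderated over all genes.

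Genotypes were compared with limma 3.58.1 (R 4.3.3) on log2(RPKM + 1) with a variance trend, no covariates, p-values adjusted by Benjamini-Hochberg across 11339 genes, and calls made under 0.05. Ratios were compared with exact permutation tests over libraries, whose smallest two-sided p is 0.1. Alternatives tried were limma-voom with recovered reads, TMM, upper-quartile and RLE factors, scaling to rod genes, pseudocounts of 0.1 and 5, a mean RPKM of at least 1, the replicate letter as a block, and leaving out each library. The members and the gene lists were chosen with earlier results of these data known. Beyond the 10 members and *Kmt2a*, genes were named as every gene of the receptor, modulator and starburst lists, as the highest and lowest fold change and most abundant gene of each other list, and as the 3 closest to *Chat*. Of these, 3 are not reported here. Coordinates and exon overlaps are those of GENCODE vM21 for GRCm38, in which 11329 gene IDs were found and 53.4% of genes had the recovered length. Other steps ran in Python 3.11.15 (scipy 1.17.1, pandas 2.3.3, numpy 2.4.6), with figures drawn by matplotlib 3.10.9.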

Additional observations from a re-analysis of the deposited data

How the results depend on the processing

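*Chrna3*, *Chrna4*, *Chrna6* and *Ache* kept their direction and stayed called in all 15 alternatives. Of the cholinergic genes, 4 were called in the analysis as reported, 6 with TMM, upper-quartile or RLE factors and 8 with libraries scaled to rod genes. Leaving out 1 library gave 4 to 6 called. Over all genes, 2643 were called (37.8% higher), 9490 with the scaling to rod genes (2.52% higher), and 51.9% to 53.1% of calls were higher with TMM, upper-quartile or RLE factors. Leaving out 1 library gave 1704 (without WT sample b) to 2536 genes, and 1757 without *Mll1KO* sample c, with fewer samples to test on. With the letter as a replicate block 2242 genes and the same 4 cholinergic genes were called, and *Chrna7* (0.22) was not. Deviations of same-letter libraries from their group means correlated at -0.039, -0.19 and -0.007 (letters a to c). None of the 6 samples correlated best with its own letter. Whether samples of the same letter were collected or prepared together was not tested. The *Mll1KO* minus WT difference in the log2 ratio of *Slc18a3* to *Chat* lay between -0.28 and -0.12 and that in the ratio of *Chrnb3* to *Chrna6* between 0.44 and 0.53 over their alternatives, with no p under 0.1.

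The scaling to rod genes divides all values of a library by 1 factor, 0.8811 to 0.9276 in WT and 1.093 to 1.127 in *Mll1KO*. It therefore lowered the log2 fold change of every gene, with the median of all genes going from -0.03 to -0.29. The sign changes below follow from this shift. Why the sum over rod genes differed between the groups was not tested. Of the cholinergic genes, the scaling put *Chat* at -0.03, *Slc18a3* at -0.20 and *Slc5a7* at -0.04. Of the receptors and their partners it put *Chrna2* at -0.01, *Chrna5* at -0.06, *Chrna7* at -0.04, *Chrnb1* at -0.10, *Chrm1* at -0.09, *Chrm3* at -0.01, *Ric3* at -0.18, *Tmem35a* at -0.15, *Lypd6* at -0.22, *Prima1* at -0.03 and *Acly* at -0.26. Elsewhere it put *Sox2* at -0.16, *Megf11* at -0.09, *Slc32a1* at -0.13, *Pgbd5* at -0.19, *Ccdc155* at -0.00 and *D230025D16Rik* at -0.09. *Rnd3*, at -0.01 as reported, was at 0.01 with TMM factors and 0.02 with upper-quartile and RLE factors. Leaving out libraries turned *Rnd3* to 0.02 (without WT sample c) and 0.03 (without *Mll1KO* sample a), *Chrna5* to -0.03 (without *Mll1KO* sample c), and *Lypd6* to -0.02 and *Rgr* to -0.08 (without *Mll1KO* sample b). Over the 6 libraries left out in turn, *Rnd3* ran from -0.05 to 0.03, *Chrna5* from -0.03 to 0.26, *Lypd6* from -0.02 to 0.08 and *Rgr* from -0.08 to 0.51.

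The read numbers of *Chat*, *Slc5a7* and *Chrna3* were the smallest of the list, from 177 to 515 reads per library. With 3 libraries a group, differences near 0.2 on the log2 scale were called for some genes (*Lynx1* at -0.20, *Ly6h* at -0.18). They were not called for others (*Slc5a7* at 0.18, *Chat* at 0.22). The smallest difference that 3 libraries a group can show was not tested.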
